A study of Mus musculus with 24 samples.

Results

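Livers of male ob/ob mice given regular γ-oryzanol by mouth were compared with livers of ob/ob mice given methylcellulose, its vehicle. The arrays were chosen by their titles alone, 3 treated and 3 vehicle livers, and make up 6 of the 24 arrays in the series. All mice were 9 weeks old, were kept on chow and had been treated for 4 weeks, so the obesity that follows from a missing leptin signal is common to both groups and no lean mouse enters the comparison. By the study's methods the mice put on arrays were picked as representative of their group, and p-values measure the spread among these chosen mice. Treated arrays are called Orz 1 to 3 and vehicle arrays Veh 1 to 3.

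γ-Oryzanol is a mixture of ferulic acid esters from rice bran oil. The liver of the ob/ob mouse stores large amounts of triglyceride, makes fatty acids and glucose at a high rate and signals poorly in response to insulin. Hepatocytes also clear retinoic acid, drugs and steroids through cytochrome P450 enzymes and sulfotransferases, make bile acids from cholesterol and secrete most plasma proteins. The comparison asks which liver transcripts differ when regular γ-oryzanol is given without a nanoparticle carrier.

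The measurement was the log2 signal of the distribution free weighted method (DFW), which condenses the probes of an Affymetrix probe set into 1 value and pulls arrays towards each other. Over the 6 arrays values ran from 5.31 to 14.8, all 6 medians were 6.58, and 99.6% of the 45101 probe sets spanned under 0.001 log2 DFW units. A DFW difference is therefore no fold change and has been stated here in thousandths of a log2 DFW unit, treated minus vehicle, with the standard error of the limma fit. The value of a single array is stated as its deviation from the mean of all 6 arrays, in the same thousandths. Rank product called a probe set at an estimated proportion of false positives (pfp) under 0.05, over 9 treated and vehicle pairs with 100 permutations. A pfp of 0 means that no permuted value scored as extreme.

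The livers carried hepatocyte transcripts. Alb, the plasma albumin gene, stood at 14.8 in the vehicle livers against 6.57 in the vehicle hypothalamus arrays of the same arm, and the synaptic gene Snap25 at 5.50 against 13.1, although the tissues were quantified apart. None of the 6 hepatocyte, 4 cholangiocyte, 7 Kupffer cell and 6 endothelial markers measured was called, and the largest difference among the hepatocyte markers was -0.0467 thousandths, for Tat. Of 6 stellate cell and fibroblast markers Lrat was called lower and 5 had negative differences, with a median scaled deviation of -1.57 in Orz 1, and of 3 lymphocyte markers Ighm, the immunoglobulin heavy chain, was called higher. In bulk liver fewer cells of a type and less RNA per cell cannot be told apart.

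Rank product called 82 probe sets higher (0.182% of those tested) and 97 lower (0.215%). Of these 179 probe sets, 129 (72.1%) lay in the widest percent of all probe sets by spread within groups. Over the 18193 genes, each taken as its probe set of highest mean, 23 were called higher (0.126%) and 51 lower (0.28%). Called counts of the gene lists below are to be read beside these shares. After adjustment limma called 0 probe sets, with 2067 of 45101 (4.58%) at an unadjusted p under 0.05. The methods' t-test likewise called 0 after adjustment, with 1992 of 45101 at an unadjusted p under 0.05. With 3 against 3 arrays an exact two-sided permutation test cannot go below p = 0.1. All treated arrays lay above all vehicle arrays in 5.02% of probe sets and below them in 4.23%.

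Single arrays shaped the calls, as the plot of called probe sets by array shows. Higher calls place a vehicle array lowest almost by definition, but not evenly, since among the 82 of them Veh 1 was the lowest array in 48, Veh 3 in 21 and Veh 2 in 10. Among the 97 lower ones Veh 2 was the highest array in 49, Veh 1 in 29 and Veh 3 in 14. Orz 1 was the lowest in 44 of these, Orz 3 in 30 and Orz 2 in 19. The higher calls include 8 control probe sets, and none of the lower calls is a control. All 6 probe sets of the thr spike-in, a bacterial RNA added during labelling, had their lowest value in Veh 1 (-6.24 to -4.06) and their highest in Orz 2 (5.95 to 8.73), and both 18S ribosomal RNA probe sets were highest in Orz 2. What these controls share with the gene calls was not tested.

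**Figure D1:**
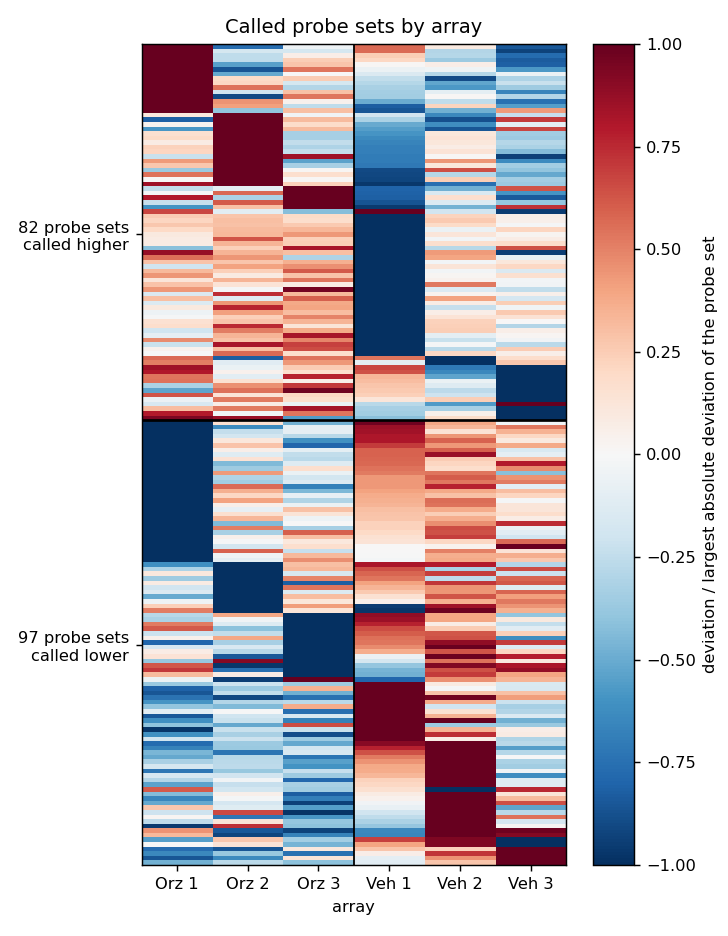
Each row is 1 called probe set and each column 1 array; colour is the deviation from the mean of the 6 arrays divided by the largest absolute deviation of that probe set, and the horizontal line parts the 82 higher from the 97 lower calls. Rows are grouped by the array with the largest deviation. Veh 1 leads the widest block of the higher calls on the negative side, and Orz 1 and Veh 2 lead wide blocks of the lower calls.

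Without Veh 1 the lower calls numbered 16 and without Veh 2 they numbered 10, against 46 without Veh 3. The higher calls numbered 31, 17 and 20 without Orz 1, 2 and 3. When Veh 1 and Veh 2 were both left out, a choice made after the values were seen, 140 probe sets were called higher and 1 lower. Whichever 1 of the 6 arrays was omitted, 8 probe sets stayed called higher and 5 lower. The higher ones are 4 probe sets of Malat1, those of Erdr1 and Phlda1 and 2 without a gene name, and the lower ones belong to Cyp26a1, Serpina12, Cbr3, Car3 and Preb.

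**Figure D2:**
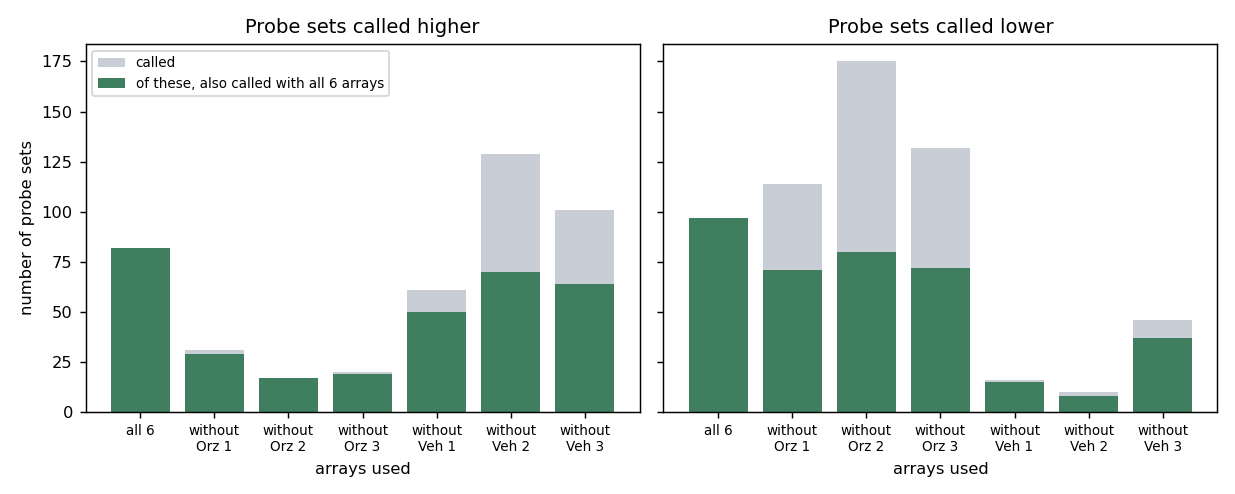
Bars give the number of probe sets called higher (left) and lower (right) with all 6 arrays and without each array in turn; the green portion was also called with all 6. Lower calls fell to 16 and 10 without Veh 1 and Veh 2, and higher calls to between 17 and 31 without any 1 treated array.

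Cyp26a1, the hydroxylase that breaks down retinoic acid in liver, had the largest difference among the lower calls. Its deviations were -44.7, -25.0 and -38.0 in Orz 1 to 3 and -10.7, 25.5 and 92.8 in Veh 1 to 3. All treated arrays lay below all vehicle arrays, and Veh 3 stood far above the other two vehicle arrays. The difference was -71.8 (SE 28.3, pfp 0), or -43.3 without Veh 3, and the call held without any 1 array. Retinoic acid receptors are known to induce Cyp26a1 through direct repeats of a hexamer spaced by 5 bases, and such a repeat lies close to its start, so the promoter is printed with those of 3 other called genes. Letters are from RefSeq on GRCm38.p6, 250 bases before the start, 5′ to 3′ on the strand of the gene, and 53 of the 64 named genes had a promoter in that set. Capitals mark 1 motif per gene, searched on both strands.
Cyp26a1 (chr19:37697558-37697807, plus strand): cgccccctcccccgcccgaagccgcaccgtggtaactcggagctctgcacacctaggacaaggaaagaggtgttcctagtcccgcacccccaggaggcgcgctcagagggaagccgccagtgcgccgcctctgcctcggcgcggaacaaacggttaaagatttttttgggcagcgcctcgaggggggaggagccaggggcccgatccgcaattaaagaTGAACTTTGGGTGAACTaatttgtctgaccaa
Pnpla3 (chr15:84167566-84167815, plus strand): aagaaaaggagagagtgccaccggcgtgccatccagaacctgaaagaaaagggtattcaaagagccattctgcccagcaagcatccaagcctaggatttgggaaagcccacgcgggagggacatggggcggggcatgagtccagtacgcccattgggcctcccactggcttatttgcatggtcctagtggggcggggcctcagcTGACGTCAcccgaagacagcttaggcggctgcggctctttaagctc
Nr0b2 (chr4:133553126-133553375, plus strand): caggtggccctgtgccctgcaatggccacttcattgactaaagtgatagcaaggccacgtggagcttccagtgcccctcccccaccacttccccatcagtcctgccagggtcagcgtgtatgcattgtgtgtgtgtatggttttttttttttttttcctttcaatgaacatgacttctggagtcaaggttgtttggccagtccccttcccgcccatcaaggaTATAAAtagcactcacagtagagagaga
Orm3 (chr4:63355908-63356157, plus strand): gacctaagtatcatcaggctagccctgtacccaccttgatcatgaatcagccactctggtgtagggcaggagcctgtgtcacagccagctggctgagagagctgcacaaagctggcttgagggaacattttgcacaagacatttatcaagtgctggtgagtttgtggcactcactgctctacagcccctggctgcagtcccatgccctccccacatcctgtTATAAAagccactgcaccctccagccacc
In Cyp26a1 the capitals are a direct repeat on the opposite strand, 16 to 32 bases before the start, of AGTTCA hexamers spaced by 5 bases, a form that with AGGTCA also allowed at either position was found in 11 of 32851 mouse promoters (0.0335%). In Pnpla3 they are TGACGTCA, the cAMP response element, which reads alike on both strands and occurs in 1.55% of promoters. In Nr0b2 and Orm3 they are the TATA box TATAAA, present in 12.4%. The same hexamers spaced by 1 or by 4 bases were in no named gene's window. These matches describe the letters and were not tied to the signals.

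Other genes of retinoid handling moved less evenly. Of 21 measured, Cyp26a1 among them, 2 were called lower and 1 higher, against 0.28% and 0.126% of all genes. Cyp26a1 is itself 1 of the 2 lower calls. The median difference was -4e-05 thousandths against -3.1e-05 over all genes. Lrat, which esterifies retinol for storage in stellate cells, had -2.04, -0.381 and 0.336 in the treated and 0.00801, 0.0681 and 2.01 in the vehicle arrays. Orz 1 and Veh 3 set this difference of -1.39 (SE 0.882, pfp 0.00609), which was -0.718 without Orz 1 and -0.733 without Veh 3, and the call ended without Veh 2 or Veh 3 (pfp up to 0.202). Cyp26b1, a related hydroxylase, was called higher by its ranks (pfp 0.0359) while its mean difference was -0.591 (SE 2.59), because Veh 3 at 5.81 outweighed Veh 1 at -1.63 and Veh 2 at -3.29. It was called only with all 6 arrays or without Veh 3, where the difference was 2.16. The difference was -0.281, -0.947, -1.55 and -2.38 without Orz 1, Orz 2, Veh 1 and Veh 2, where it was not called (pfp up to 0.332).

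Serpina12, which encodes the adipokine vaspin, was lower in every treated array. Its deviations were -5.68, -2.53 and -0.741 in the treated and 3.25, 1.22 and 4.49 in the vehicle arrays. The groups did not overlap, and the difference of -5.97 (SE 1.59, pfp 0) kept its call without any 1 array. Among 22 serpins and secreted hepatokines Fgf21, a fasting hormone of the liver, was the other call. It stood at -0.144, -0.0431 and -0.0269 in the treated and 0.0627, 0.0870 and 0.0642 in the vehicle arrays, again without overlap. Its difference was -0.143 (SE 0.0343, pfp 0.0160), and the call ended without any 1 vehicle array (pfp up to 0.204).

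Cbr3, a carbonyl reductase of the Nrf2 pathway, which answers oxidative stress, was lower in every treated array with little spread. Its deviations were -0.411, -0.171 and -0.519 in the treated and 0.276, 0.461 and 0.364 in the vehicle arrays. The difference of -0.734 (SE 0.106, pfp 0) stayed called without any 1 array, and its unadjusted limma p of 0.00117 was among the 8 smallest of the genes with negative differences (adjusted p = 1). Of 20 measured genes of the list of Nrf2 targets and metallothioneins, 5 had all treated below all vehicle arrays (25.0%, against 4.96% of all genes) and 0 had them above (4.56% of all genes). Besides Cbr3 these were Cbr1, at -0.0350 (SE 0.0116), Srxn1, a sulfiredoxin, at -0.0306 (SE 0.00428), Gclc, the catalytic subunit of glutathione synthesis, at -0.0111 (SE 0.00495), and the epoxide hydrolase gene Ephx1, at -0.00104 (SE 0.000554), none of which passed the rank product threshold. Other members, such as Nqo1 at -0.00366 (SE 0.0286) and Hmox1 at 0.00326 (SE 0.00372), overlapped between the groups. The list's median was -0.00194 thousandths, against -3.1e-05 over all genes.

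The metallothioneins, small metal-binding proteins, were called in the other direction with widely scattered arrays. Mt1 had -17.7, 10.05 and 35.1 in the treated and -42.5, -12.0 and 27.0 in the vehicle arrays, and Mt2 had -26.0, 12.8 and 43.5 against -41.5, -20.7 and 31.8. In both genes Orz 3 and Veh 3 were high and Veh 1 and Orz 1 low, so the groups overlapped almost throughout. Mt1 differed by 18.3 (SE 23.1, pfp 0.00280) and Mt2 by 20.2 (SE 27.2, pfp 0.00150). Both calls ended without Orz 2, Orz 3 or Veh 1 (pfp up to 0.399 for each), and without Veh 1 the differences were 1.64 and 4.52. They also moved to 5.35 and 3.51 without Orz 3, to 31.8 and 38.2 without Orz 1 and to 36.4 and 41.2 without Veh 3.

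Of 22 genes of fatty acid synthesis and desaturation 2 were called lower and none higher on their probe sets of highest mean, against 0.28% and 0.126% of all genes. Positive differences were found in 4 and negative ones in 17 (48.8% of all genes had positive ones). Elovl6, a fatty acid elongase picked after its values were seen, was called lower on 1 of its 3 probe sets. Their differences ran from -0.564 to 0.0238. Pnpla3, a lipid droplet acylhydrolase that follows insulin and carbohydrate intake, had -0.125, -0.145 and -0.584 in the treated and 0.353, 0.362 and 0.139 in the vehicle arrays. The groups were apart, the difference was -0.569 (SE 0.153, pfp 0), and the call ended only without Veh 2 (pfp 0.0511). Scd2, a stearoyl-CoA desaturase, ran from -2.45 in Orz 3 to 2.495 in Veh 2, and its -0.884 (SE 1.44, pfp 0.0370) turned to 0.121 without Orz 3 and 0.142 without Veh 2. It moved to -1.93, -1.35 and -1.44 without Orz 2, Veh 1 and Veh 3, and the call ended without Orz 3 or any 1 vehicle array (pfp up to 1.03). The list held 3 lower calls without Orz 1 or Orz 2, 1 without Orz 3, Veh 1 or Veh 3 and 0 without Veh 2.

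In sterol, bile acid and lipoprotein genes the calls were few. Sqle, the squalene epoxidase of cholesterol synthesis, was the only 1 of 31 sterol genes called, and it was lower. It stood at -0.292, -0.466 and -0.101 in the treated and 0.405, 0.638 and -0.184 in the vehicle arrays, where Veh 3 fell among the treated. The difference was -0.573 (SE 0.244, pfp 0.00640), and the call ended without Veh 1 or Veh 2 (pfp up to 0.211). Apoa4, an apolipoprotein of triglyceride-rich particles, was lower on both of its probe sets, with -0.566, 0.115 and -0.0470 against 0.210, 0.165 and 0.123 on the brighter one. The groups did not overlap, although Orz 2 at 0.115 lay just under Veh 3 at 0.123, and the difference of -0.332 (SE 0.190, pfp 0.0121) was -0.132 without Orz 1. Its call ended without any 1 vehicle array (pfp up to 0.205).

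Of 27 bile acid genes 1 was called in each direction (0.126% of all genes were called higher and 0.28% lower). Nr0b2, the small heterodimer partner that represses bile acid synthesis, had -0.215, 0.0266 and -0.407 in the treated and 0.0410, 0.492 and 0.0621 in the vehicle arrays, without overlap. It differed by -0.397 (SE 0.177, pfp 0.00704), or by -0.250 without Veh 2, and was no longer called without any 1 vehicle array (pfp up to 0.202). Cyp7a1, the rate-limiting enzyme of bile acid synthesis, was called higher on both of its probe sets, yet its arrays were mixed. On the brighter probe set the deviations were 18.9, -14.3 and -0.974 in the treated and 10.8, 1.63 and -16.0 in the vehicle arrays. Its mean of 2.39 (SE 11.4, pfp 0.0333) turned to -6.46 without Orz 1 and -5.01 without Veh 3, was 10.2, 8.38 and 3.804 without Orz 2, Veh 1 and Veh 2, and was not called without Veh 3 or any 1 treated array (pfp up to 0.906).

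Of 23 genes of gluconeogenesis, glycolysis and glycogen 2 were called lower and 3 had positive differences (48.8% of all genes did). All treated lay below all vehicle arrays in 2 (8.70%, against 4.96% of all genes) and above them in 0 (against 4.56%). Ppp1r3g, which directs protein phosphatase 1 to glycogen, had -0.285, -0.125 and 0.000915 in the treated and 0.0656, 0.133 and 0.210 in the vehicle arrays. The groups did not overlap and differed by -0.273 (SE 0.0849, pfp 0.00591), a call that ended without any 1 vehicle array (pfp up to 0.101). G6pc, whose product releases free glucose from glucose 6-phosphate, overlapped, with 0.0627, 0.454 and -1.18 in the treated against 0.648, 0.753 and -0.735 in the vehicle arrays. Both groups held 1 low array, Orz 3 and Veh 3. Its difference of -0.444 (SE 0.630, pfp 0.0167) turned to 0.0367 without Orz 3, moved to -0.782, -0.231, -0.178 and -0.922 without Orz 2, Veh 1, Veh 2 and Veh 3, and lost its call without Orz 3, Veh 1 or Veh 2 (pfp up to 0.420). The list held 3 lower calls without Orz 1 or Orz 2, 1 without Orz 3 or Veh 3 and 0 without Veh 1 or Veh 2.

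Among growth genes Ccnd1, the D-type cyclin of the entry into the cell cycle, was called lower on all 3 of its probe sets. The brightest had -2.97, 1.52 and -0.987 in the treated and 0.680, 1.94 and -0.177 in the vehicle arrays, so that Orz 2 lay among the vehicle arrays. The difference was -1.63 (SE 1.32, pfp 0.00588), or -0.545, -2.79 and -1.06 without Orz 1, Orz 2 and Veh 2, and the call ended without Veh 2 (pfp 0.211). Another of its probe sets, at -0.567 (SE 0.378, pfp 0.0167), kept its call only without Orz 2 (pfp up to 0.385). No other of 22 proliferation genes was called, 4 of them had positive differences (48.8% of all genes did) and their median was -0.0143 thousandths. The 2 members without overlap, Ccne1 at 0.00218 (SE 0.000970) and Tyms at 0.00951 (SE 0.00312), had all treated above all vehicle arrays (9.09%, against 4.56% of all genes), and 0 lay below. The scaled deviation of the list, each gene over its own spread, had a median of -0.914 in Orz 1 and 0.691 in Orz 2, with 0.210 to 0.257 in the vehicle arrays, and without Orz 2 it had 5 lower calls in place of 1, and without Veh 2 it had 0. Ajuba, a LIM domain protein of cell junctions, had -0.151, -0.0888 and -0.174 against 0.0147, 0.166 and 0.232, a difference of -0.276 (SE 0.0635, pfp 0.00579) without overlap. Its call ended without any 1 vehicle array (pfp up to 0.0996).

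Of 37 immediate early genes, which answer growth signals within minutes, 1 was called higher and 2 lower on their probe sets of highest mean. Phlda1, a pleckstrin homology-like domain protein, had 0.106, 2.78 and 0.520 in the treated and -1.41, -1.74 and -0.265 in the vehicle arrays. All treated arrays lay above all vehicle arrays, Orz 2 highest, and the difference of 2.27 (SE 0.865, pfp 0), or 1.45 without Orz 2, kept its call without any 1 array. Sgk1, a kinase induced by serum and glucocorticoids, had -1.50, 0.634 and -0.0969 against 0.779, 0.808 and -0.625. It differed by -0.642 (SE 0.719, pfp 0.0156), moved to between -1.12 and -0.0523 when Orz 1, Orz 2 or any 1 vehicle array was left out, and lost its call without Orz 1, Veh 1 or Veh 2 (pfp up to 0.415). Plk3, a stress-induced polo-like kinase, had 0.0249, 0.471 and -1.62 against 1.37, 3.24 and -3.48, with a mean of -0.750 (SE 1.93, pfp 0.0155) that turned to 0.684 without Veh 2. It lay between -2.68 and -0.127 without Orz 2, Orz 3, Veh 1 or Veh 3, and its call ended without Veh 1 or Veh 2 (pfp up to 0.791). Jun, a subunit of AP-1, was called on its dimmer probe set, chosen after its values were seen, with -0.753, -0.0886 and -0.186 against 0.442, 0.651 and -0.0649. Its difference there was -0.685 (SE 0.272, pfp 0.00182), with the call ending without Veh 1 or Veh 2 (pfp up to 0.0859), and -0.0348 on the brighter probe set.

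**Figure D3:**
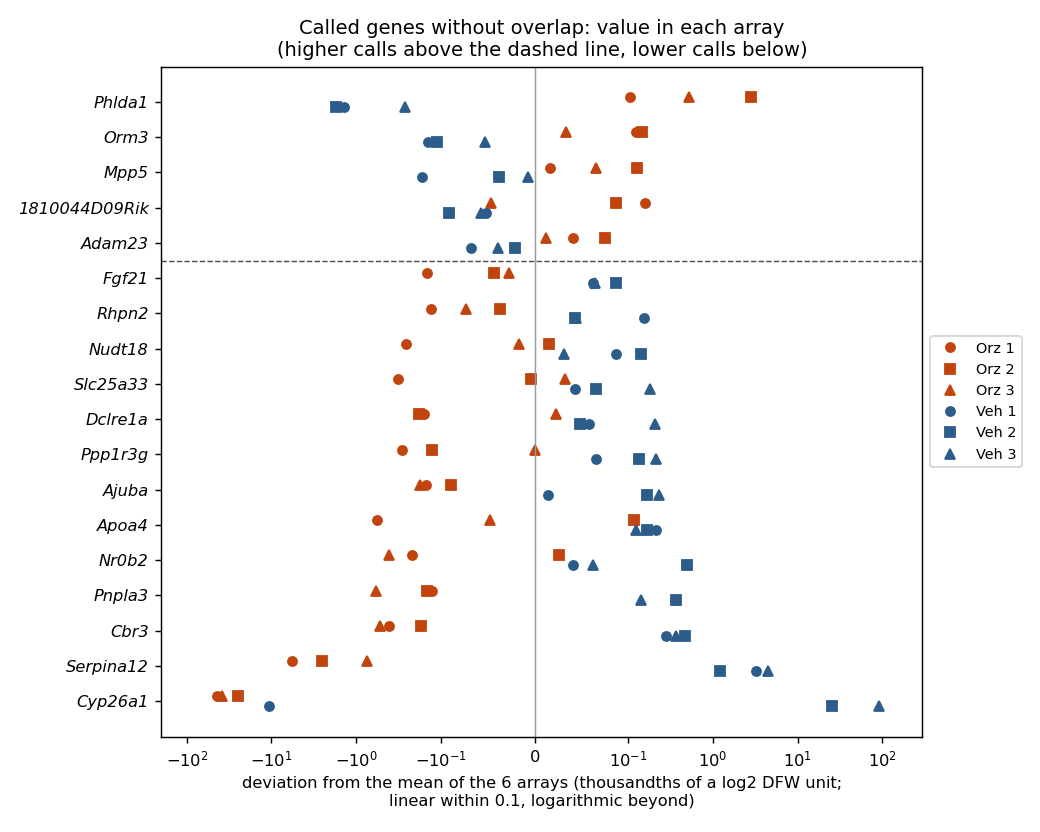
Points give the deviation of each array from the mean of the 6 arrays. Only named genes that were called and whose groups do not overlap are shown, which leaves out some of the lower calls. Units are thousandths of a log2 DFW unit, on an axis that is linear within 0.1 and logarithmic beyond. Red marks treated and blue vehicle arrays, with shapes for the replicate number. Deviations reach from -44.7 to 92.8 for Cyp26a1, whereas those of Fgf21 stay between -0.144 and 0.0870.

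The largest differences among the genes called higher were those of a nuclear noncoding RNA and of a gene on the sex chromosomes. Malat1, a long noncoding RNA of nuclear speckles, had 29.5, 40.7 and 23.5 in the treated and -136, 36.1 and 6.63 in the vehicle arrays of its brightest probe set. Only Veh 1 stood apart. The difference was 62.4 (SE 49.0, pfp 0), 9.81 without Veh 1 and 96.1 without Veh 2, and 4 of its 7 probe sets were called higher whichever 1 of the 6 arrays was omitted. Erdr1, a gene of the pseudoautosomal region, had 110, 31.8 and 11.8 in the treated against 63.8, -13.3 and -204 in the vehicle arrays. Here Veh 3 was the low array, and the difference of 102 (SE 78.0, pfp 0) was 160 without Veh 1 and 26.0 without Veh 3, with its call kept without any 1 array.

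Further genes called higher followed Veh 1 in the same way, on probe sets chosen after their values were seen. Nedd4, a ubiquitin ligase, stood at -11.7 in Veh 1 and between 0.944 and 3.94 in the other 5 arrays, and its difference of 5.16 (SE 4.25, pfp 0.00250) was 0.59955 and no longer called without Veh 1 (pfp up to 0.193, also lost without Orz 2 or Orz 3). Ddx6, an RNA helicase of processing bodies, had 0.0968, 0.719 and 0.270 against -1.14, -0.0280 and 0.0802. It differed by 0.723 (SE 0.395, pfp 0.00182), or by 0.336 without Veh 1, and its call ended without Orz 2 or Orz 3 (pfp up to 0.0933). Prkaa2, a catalytic subunit of AMP-activated protein kinase, had -0.685 in Veh 1 and between 0.0154 and 0.2998 elsewhere. Its 0.373 (SE 0.238, pfp 0.0200) was 0.124 without Veh 1, where the call ended, as it did without any 1 treated array (pfp up to 0.272). Only 1 of the 3 probe sets of Prkaa2 had the sign of the call, and the lowest was at -0.00533. For Nedd4 all 3 had it, and for Ddx6 3 of 4.

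Orm3, an acid glycoprotein of the acute phase, was 1 of the few higher calls with all arrays apart. Its deviations were 0.123, 0.145 and 0.0338 in the treated and -0.13975, -0.110 and -0.0524 in the vehicle arrays. The difference was 0.201 (SE 0.0390, pfp 0.00882), and the call ended without any 1 treated array (pfp up to 0.128). None of the other 33 acute phase genes measured was called on its probe set of highest mean. The chemokine gene Cxcl1, picked after its values were seen, was called higher on 1 of its 3 probe sets, without overlap. It differed there by 0.156 (SE 0.0706, pfp 0.0260), and that call ended without any 1 treated array (pfp up to 0.369). All 3 of its probe sets had positive differences. Mpp5 and Adam23, a polarity scaffold and a metalloprotease-like membrane protein, also did not overlap, at 0.139 (SE 0.0531, pfp 0.0314) and 0.0850 (SE 0.0207, pfp 0.0468). Mpp5 was 0.0913 without Veh 1, and both calls ended without Veh 1 or any 1 treated array, that of Adam23 also without Veh 3 (pfp up to 0.368 and 0.459).

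Genes that are higher in the liver of female mice made up 4 of the 23 higher gene calls. Of 19 measured, 4 were called higher and 0 lower, against 0.126% and 0.28% of all genes. Positive differences were found in 13 (48.8% of all genes had them), and 2 had all treated above all vehicle arrays (10.5%, against 4.56% of all genes). Sult1e1, the estrogen sulfotransferase, had 1.21, 0.471 and 0.424 in the treated and -1.39, 0.598 and -1.31 in the vehicle arrays. Veh 2 lay among the treated arrays. The difference was 1.40 (SE 0.640, pfp 0.00818), with the call ending without Veh 1 or any 1 treated array (pfp up to 0.209). Sult2a2, a hydroxysteroid sulfotransferase, had 2.56, 1.26 and 0.730 against -9.01, 4.76 and -0.298, and its 3.03 (SE 3.72, pfp 0.0232) turned to -0.713 without Veh 1 and was 6.17 without Veh 2. Hao2, a peroxisomal oxidase, and Prom1, a membrane glycoprotein, differed by 0.728 (SE 0.598, pfp 0.0274) and 1.15 (SE 1.03, pfp 0.0151), with Veh 1 lowest in both. Without Veh 1 they were 0.197 and 0.760, without Veh 2 they were 1.20 and 1.87, and Prom1 was 0.470 and 1.96 without Orz 2 and Orz 3. Sult2a2, Hao2 and Prom1 were called only with all 6 arrays or without Veh 2 (pfp up to 0.305, 0.498 and 0.528). The list's median scaled deviation was -1.05 in Veh 1 and 0.556 in Veh 2, and its higher calls numbered 7 without Veh 2, 1 without Veh 3 and 0 without any other array.

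Of 18 genes that are higher in male liver 2 were called lower and 0 higher, against 0.28% and 0.126% of all genes. Cyp4a12a, a fatty acid hydroxylase, was called lower by its ranks (pfp 0.0283), although its mean difference was 0.914 (SE 9.23). Its deviations were 10.4, -3.12 and -5.87 in the treated and 2.73, -16.9 and 12.8 in the vehicle arrays, and the mean turned to -4.04 without Orz 1 and -7.32 without Veh 2 and rose to 2.70, 4.08, 2.51 and 7.55 without Orz 2, Orz 3, Veh 1 and Veh 3. The call ended without Orz 2, Orz 3, Veh 1 or Veh 3 (pfp up to 0.828). Bcl6, a transcriptional repressor regulated by growth hormone, ran from -2.01 in Orz 3 to 3.67 in Veh 2, and its -0.978 (SE 1.71, pfp 0.0300) turned to 0.610 without Veh 2. It was -1.72, -0.217 and -2.19 without Orz 1, Orz 3 and Veh 3, and was not called without Orz 3, Veh 1 or Veh 2 (pfp up to 1.03). The list had 0 lower calls without Veh 1, 1 without Veh 3 and 3 without Orz 3.

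Ighm and the globin probe sets shared by several genes were called higher, with Orz 1 the highest and Veh 3 the lowest array. The 3 erythroid markers with a probe set of their own were not called, and the 3 lymphocyte markers had a median scaled deviation of 0.449 in Veh 3. Of these markers Hba-a1, Slc4a1, Cd3e and Ms4a1 stood no higher in the vehicle livers than in the vehicle hypothalamus. Slc4a1, for example, was at 6.45 against 6.47. The marker lists therefore cannot show whether blood cells shared this order. Ighm had 0.885, -0.479 and 0.245 in the treated and 0.0122, 0.0571 and -0.720 in the vehicle arrays, a difference of 0.434 (SE 0.428, pfp 0.0307) that was 0.1001 without Orz 1, 0.782 without Orz 2 and 0.182 without Veh 3, with the call ending without Orz 1, Orz 3 or Veh 3 (pfp up to 0.429). A probe set shared by the β-globin genes stood at 0.768 in Orz 1 and -0.709 in Veh 3, for a difference of 0.335 (SE 0.410, pfp 0.0349). That call ended without Veh 2, Veh 3 or any 1 treated array (pfp up to 0.450), and the difference was 0.0345, 0.636 and 0.0638 without Orz 1, Veh 1 and Veh 3. The part of blood in the other calls was not tested.

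**Figure D4:**
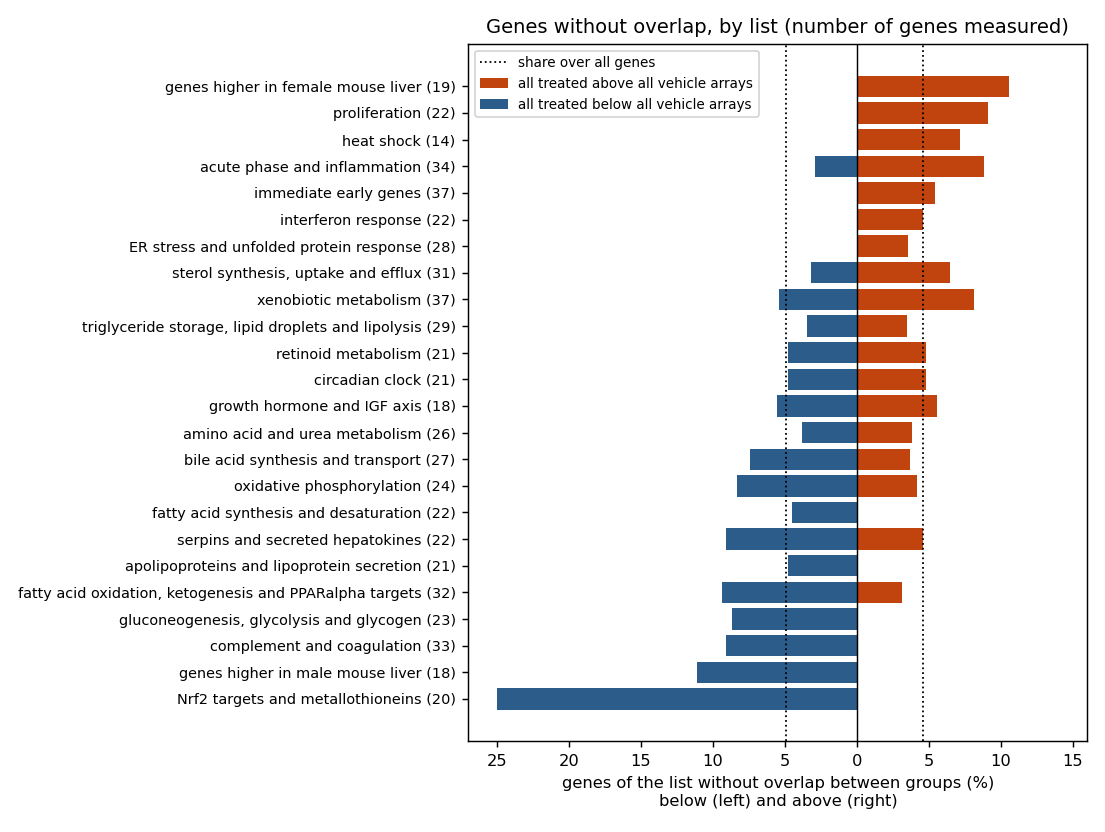
Bars give, for each gene list, the share of measured genes whose treated arrays all lay above (red, right) or below (blue, left) the vehicle arrays, with the number of genes measured in brackets; dotted lines mark the shares over all genes, 4.56% and 4.96%. The list of Nrf2 targets and metallothioneins reaches 25.0% below, and each other list holds 0 to 3 genes on either side.

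Lists that rank product hardly touched are shown in the same plot. Among 26 genes of amino acid and urea metabolism 21 had positive differences, but none was called and 1 lay apart in each direction. None of 28 genes of ER stress, 14 of heat shock, 22 of the interferon response, 21 of the circadian clock, 29 of triglyceride storage or 24 of oxidative phosphorylation was called. The largest absolute difference among the ER stress genes was 0.134 thousandths.

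A list of 14 liver genes also measured by RT-qPCR held 12 with a probe set of their own, and 1 of them, G6pc, was called. The other 11 overlapped between the groups, with differences from -0.0500 to 0.00170. Acaca, the acetyl-CoA carboxylase that commits carbon to fatty acid synthesis, differed by -0.0500 (SE 0.0538), and Fasn, the fatty acid synthase, by -0.0124 (SE 0.0225). Pck1, the gluconeogenic carboxykinase, was at -0.00332 (SE 0.0147) and its coactivator Ppargc1a at -0.0219 (SE 0.0512). The stress gene Ddit3 was at -0.00206 (SE 0.00187), Xbp1 at -0.00172 (SE 0.00197) and the chaperone gene Dnajb9 at 0.00170 (SE 0.0111). The study's RT-qPCR measured the spliced form of Xbp1, whereas the array value here is that of a probe set for the gene. Srebf1, Srebf2, Hmgcs1 and Ppara lay between -0.0267 and -0.000551. The mean difference was negative in 11 of the 12 genes, with a median of -0.00385 against -3.1e-05 over all genes, and it was larger than its standard error only in Ddit3 and Hmgcs1.

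The probe sets that limma ranked first were not those of rank product. Rtn4r, the Nogo receptor gene, had the smallest p of any gene, with 0.00847, 0.00483 and 0.00704 in the treated and -0.00841, -0.00663 and -0.00529 in the vehicle arrays. These groups were far apart for their spread, yet the difference was 0.0136 (SE 0.00137, unadjusted p = 0.000235, adjusted p = 1, pfp 0.709). Zmynd19 was first among the lower, at -0.00607 (SE 0.000700, unadjusted p = 0.000427). All 16 genes of smallest p per direction were without overlap, and Cbr3 was the only 1 of them that rank product called.

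Probe sets of the same gene moved together only in part. Of the 4695 genes with exactly 2 probe sets 55.4% had the same sign of the difference on both, and 59.4% did among the brighter probe sets. Of 81 called genes with several probe sets, all probe sets shared the sign of the call in 47, and more than 1 was called in 12. Over all 9010 genes with several probe sets, 3683 had the same sign on all of them. Of the 171 other probe sets of the called genes, 118 had the sign of the call. Apoa4 was called lower on both of its probe sets with no overlap on either. Slco1b2, a bile acid and drug uptake transporter, was higher on all 5 of its probe sets, from 0.00273 to 0.820, with no overlap on 3 and 1 of them called.

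The Nano-Orz arm of the series, mice given the nanoparticle form against water, was run on 6 further liver arrays with vehicles of their own, and called 0.302% of genes higher and 0.258% lower. Called in both arms were 48 probe sets, 27 in the same direction and 21 in opposite directions. The former include the probe sets of the thr spike-in. The genes described next are a selection and do not mirror that split. Of the probe sets called lower whichever regular array was omitted, those of Cyp26a1 (4.71, SE 9.42), Serpina12 (0.356, SE 0.260), Cbr3 (-0.508, SE 0.820) and Preb (0.0260, SE 0.0242) were not called there with all 6 arrays. Leaving out 1 array of that arm moved Cyp26a1 from -4.22, called lower, without the second Nano-Orz array to 12.5, called higher, without the third. It was called higher without the second or the third vehicle array as well, Serpina12 was called higher without the first or the third (0.113 to 0.497 over the 6 omissions), and Cbr3 was called lower without the second (-1.33 to -0.0915). Car3, a carbonic anhydrase, was called higher there at 1.74 (SE 0.688), and that call ended without the first or the third Nano-Orz array. Malat1, higher with regular γ-oryzanol, was called lower there at -0.343 (SE 0.173), a call that held only without the first Nano-Orz array, where the difference was -0.506, and it was -0.221 without the third.

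Phlda1 was called higher in the Nano-Orz arm too, at 3.90 (SE 1.41), with all arrays apart and the call kept without any 1 array there. Pnpla3 was called lower there at -2.33 (SE 1.66), but 1 vehicle array of that arm, the third, stood at 4.64 against 0.0992 and -1.25. Without it the difference was -0.588 and not called, and the call also ended without the first vehicle array, while it was -3.53 without the second. Sult2a2 was called lower there at -874 (SE 562), with that same vehicle array at 1632 against -199.8 and -121, and without that array the difference was -276. Hao2, at -36.1 (SE 20.1) in that arm, was -15.9 without it. Both stayed called lower without any 1 array of that arm, as did Sult1e1 at -3.58 (SE 1.76). Ppp1r3g, lower with regular γ-oryzanol, was called higher there at 7.62 (SE 4.44), and at 3.29 without the second vehicle array. The difference between the arms was not tested.

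**Figure D5:**
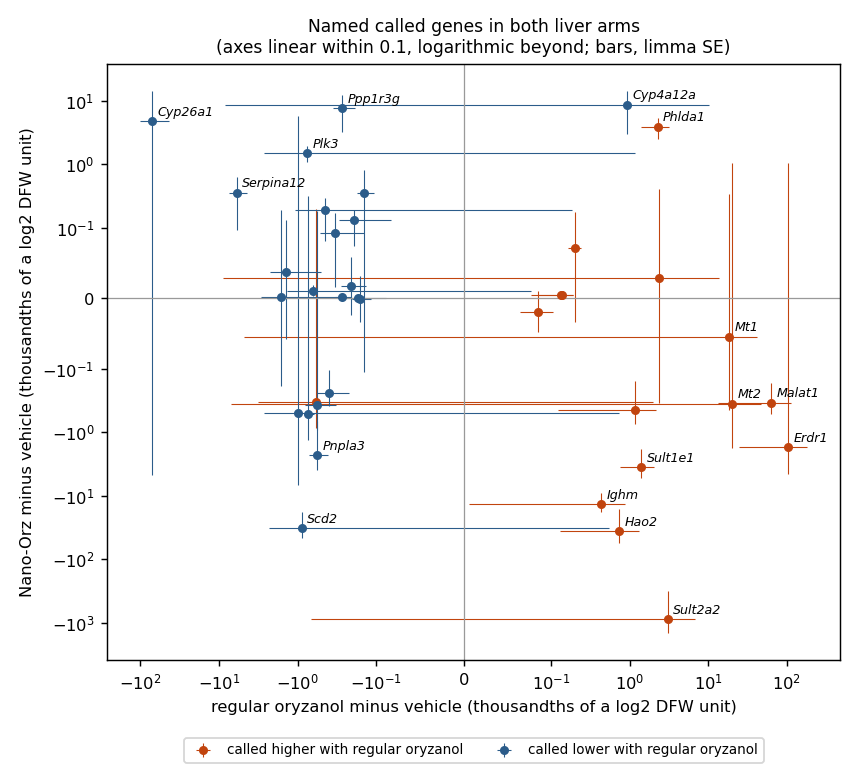
Each point is a named gene called with regular γ-oryzanol, placed by its difference from vehicle in that arm (horizontal) and in the Nano-Orz arm (vertical), in thousandths of a log2 DFW unit on axes that are linear within 0.1 and logarithmic beyond; bars are limma standard errors. Phlda1 is high on both axes, at 2.27 and 3.90, and Pnpla3 low on both, at -0.569 and -2.33, while Sult2a2 lies at 3.03 and -874. Without the third Nano-Orz vehicle array the vertical values were -0.588 for Pnpla3 and -276 for Sult2a2.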

How the data were processed

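Livers of ob/ob mice were measured on Affymetrix mouse arrays, 3 per group. Arrays were condensed with DFW by the authors, who deposited the log2 values in a series table, and each tissue of each arm seems to have been quantified by itself; how DFW shrinks differences is stated in the results. No probe-level files were used, and the 24 sample columns of the 4 tables per arm were not used because their animal codes match no label. Of 45101 probe sets, 34945 carry 1 gene symbol in the array annotation, 932 several and 9160 none, and 64 are controls.

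Values were taken as deposited. Rank product is the test the study names, without pairs or permutations. All 9 pairs, 100 permutations of values within arrays and pfp under 0.05 were chosen here, and the study prints the sign of that threshold the other way. Differences with their standard errors and Benjamini-Hochberg adjusted p came from limma (version 3.58.1, under R 4.3.3). Rank product and tables were run in Python 3.11.15 with scipy 1.17.1, numpy 2.4.6 and pandas 2.3.3, and figures were drawn with matplotlib 3.10.9. Both tests were tested on simulated data. DFW values have no counting depth, and 3 arrays per group limit the precision.

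Named genes are those of largest difference called without overlap (12 per direction), those called without any 1 array, the 8 of smallest limma p per direction, the RT-qPCR genes, in each list at most 4 called genes in either direction, and genes called in opposite directions without overlap in both liver arms. A gene is represented by the brightest probe set annotated to no other gene. The 24 gene lists, 10 marker lists and rules were chosen with earlier results of these data known. Scaled deviations divide by the within-group spread plus its median over all probe sets. Alternatives were other tests, thresholds, normalizations, a filter, pairing and leaving out arrays.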

Additional observations from a re-analysis of the deposited data

Results flagged for a closer look

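Of the called probe sets, 18 higher and 39 lower had no overlap between groups with regular γ-oryzanol. In 4 of these the treated arrays all moved the other way with Nano-Orz, each arm against its own vehicle. Over all probe sets, 5.02% lay above and 4.23% below without overlap in the regular arm. The same shares for the Nano-Orz arm were not taken, so the 4 stand without a baseline. Whether 4 exceeds the share over all probe sets was not tested. Probe sets apart in the same direction in both arms, such as that of Phlda1, were not counted. Jun, the AP-1 subunit, differed by -0.685 thousandths with regular γ-oryzanol and by 4.68 (SE 1.41) with Nano-Orz on the same probe set, called in both arms. Ddx6 differed by 0.723 and -0.0843, Aqp7, a glycerol channel, by -0.188 and 0.00674, and Vma21, an assembly factor of the proton pump, by -0.190 and 0.0135, and these were called with regular γ-oryzanol only. Without Veh 1 the regular difference of Ddx6 was 0.336 and that of Vma21 -0.1201, and the regular call of Jun ended without Veh 1 or Veh 2. The difference between the arms was not tested.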

How the results depend on the processing

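With 3 arrays per group and values compressed by DFW, the calls rest on few arrays. Against 82 probe sets called higher and 97 lower, leaving out 1 array gave 17 to 129 and 10 to 175, and leaving out Veh 1 and Veh 2 together, chosen after seeing the data, gave 140 and 1. Quantile normalization gave 77 higher and 22 lower, and 46 and 17 of these were among the 82 and 97. Standardized ranks gave 75 and 63, but only 7 and 16 of these were among the 82 and 97. The brighter probe sets by mean gave 51 and 54, a pfp under 0.01 34 and 31, and no overlap 18 and 39. Permuting ranks within pairs gave 1991 and 2011, many of them called both ways. limma gave 0 with and without a replicate block, and the methods' t-test 1113 and 879 unadjusted and 0 adjusted. Probe sets without overlap numbered 4172, 274 after quantile normalization, 2076 among the brighter ones and 7432 to 10272 without 1 array. Rank product with the replicate block gave 150 higher and 137 lower. Same-numbered arrays correlated at 0.193, 0.0207 and 0.0502, so the numbers were not taken as pairs, and not every array correlated best with its own number. Of 38 named called genes, 15 kept their call after quantile normalization, 9 with standardized ranks, 36 with the block and 13 to 25 without 1 array.

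Without 1 array at a time, mean differences crossed 0 for Bcl6 (-2.19 to 0.61), Plk3 (-2.68 to 0.684), Cyp26b1 (-2.38 to 2.16), Cyp7a1 (-6.46 to 10.2), G6pc (-0.922 to 0.0367), Scd2 (-1.93 to 0.142), Sult2a2 (-0.713 to 6.17) and Cyp4a12a (-7.32 to 7.55). With the replicate block Cyp4a12a was called higher in place of lower, at the same mean of 0.914, and Sgk1 was no longer called (pfp 0.0545). For the genes set beside it, each Nano-Orz array was also left out in turn, chosen after seeing the data. The cause was not tested.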
